A study of Mus musculus with 25 samples.

Results

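The genes encoding neuronal acetylcholine receptors were examined in spinal cord cholinergic neurons with and without the clock activator BMAL1. The members were chosen by name as the neuronal nicotinic subunits *Chrna3*, *Chrna4*, *Chrna5*, *Chrna7*, *Chrnb2*, and *Chrnb4* and the muscarinic receptors *Chrm1*, *Chrm2*, *Chrm3*, and *Chrm4*, 10 of 50559 genes in the count table. The rule itself uses no measured value, but the members were chosen with earlier results of these data known. All libraries came from C57BL/6J male mice aged 6 months, kept in a light/dark cycle and carrying *ChAT-Cre* and 1 *RiboTag* fx allele, so that ribosomes of every cell expressing choline acetyltransferase carried a hemagglutinin (HA) tag. Controls were *ChAT-Cre;RiboTag* fx/+ mice with intact *Bmal1*, and *ChAT-BKO* mice were *ChAT-Cre;RiboTag* fx/+;*Bmal1* fx/fx. Cords were taken at Zeitgeber Time (ZT) 8, in the light period, or ZT20, in the dark period, with 6 mice of each genotype at each time, which gave 24 libraries of HA-immunoprecipitated (IP) RNA from 1 spinal cord each. One further library came from pooled input RNA of whole spinal cord, with no single genotype or time assigned. ChAT-Cre marks every cholinergic cell of the cord, so somatic motor neurons, preganglionic neurons, and cholinergic interneurons were not separated.

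Nicotinic receptors are acetylcholine-gated cation channels built from 5 subunits. In neurons the α subunits encoded by *Chrna3*, *Chrna4*, and *Chrna7* bind the transmitter, the first 2 together with the β subunits encoded by *Chrnb2* or *Chrnb4*, whereas α7 can form a channel alone and α5 is an accessory subunit. Muscarinic receptors couple to G proteins: M1 and M3 (*Chrm1*, *Chrm3*) act through Gq and phospholipase C, and M2 and M4 (*Chrm2*, *Chrm4*) through Gi/o. Spinal motor neurons are known for postsynaptic M2 receptors facing cholinergic C-boutons, and their axon collaterals excite Renshaw cells through nicotinic receptors.

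Total counts ran from 4035345 to 31685207 per IP library (median 11952420), and the input held 7396587. Group medians at ZT8 were 9195204 in controls and 15054228 in *ChAT-BKO* mice, and at ZT20 they were 12408332 and 7615054. *Arntl*, the gene that encodes BMAL1, checked the genotype labels. At ZT8 controls lay between 6.22 and 9.99 CPM (counts scaled to library size) and *ChAT-BKO* libraries between 1.97 and 3.30 CPM, a change of −1.64 on the log2 scale (SE 0.16, adjusted p = 1.56e-05). At ZT20 the ranges were 7.60 to 10.8 and 1.35 to 2.80 CPM, a change of −2.08 (SE 0.16, adjusted p = 1.98e-07), so the genotypes did not overlap at either time. All CPM values were scaled by the trimmed mean of M-values (TMM), and a gene was called at an adjusted p under 0.05 in edgeR's quasi-likelihood test over 21746 genes. All 10 members passed the filter of 10 counts summed over the IP libraries.

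*Chrna5*, *Chrna3*, and *Chrnb4* lie side by side on mouse chromosome 9 (RefSeq on GRCm38.p6), *Chrna5* at chr9:54980827-55011420 on the plus strand, *Chrna3* at chr9:55010117-55026562 and *Chrnb4* at chr9:55028154-55048953 on the minus strand. The spans of *Chrna3* and *Chrna5* overlap by 1304 bases at their 3′ ends, and in 5 of 25 libraries both had expected counts that were not whole although their sum was, so some reads were shared between these 2 genes. The other members lie at chr2:91922189-91929835 (*Chrm4*), chr2:181022311-181043579 (*Chrna4*), chr3:89753448-89764632 (*Chrnb2*), chr6:36387991-36528638 (*Chrm2*), chr7:63098692-63212526 (*Chrna7*), chr13:9875486-10361062 (*Chrm3*), and chr19:8664005-8683606 (*Chrm1*). *Chrnb2* shares 1365 of its 8380 exonic bases with *Adar* on the opposite strand (GENCODE vM21).

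The stretch upstream of *Chrnb4* is shown because this gene had the clearest genotype difference below, and BMAL1 with its partner CLOCK binds E-box motifs. The 250 bases before the start that the RefSeq table gives, at chr9:55048545-55048794 on the minus strand of GRCm38.p6 and still inside the annotated gene span, hold the general form CANNTG at 2 positions, in capitals, 71 and 14 bases before the start.

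*Chrnb4* upstream: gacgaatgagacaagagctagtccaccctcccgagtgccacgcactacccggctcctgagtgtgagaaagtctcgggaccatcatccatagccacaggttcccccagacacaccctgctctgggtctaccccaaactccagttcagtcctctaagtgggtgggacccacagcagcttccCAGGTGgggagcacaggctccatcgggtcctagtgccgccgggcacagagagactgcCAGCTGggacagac

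Neither copy spells the E-box CACGTG that the clock activators prefer. Of 32851 such windows 66.2% hold CANNTG and 31.8% hold at least 2 copies, and at least 1 copy is present in 7 of 10 windows of the members (9 genes, *Chrna5* with 2 entries and *Chrm1* with none). The E-box, its variant CACGTT, and the D-box, spelled TTATGTAA, were searched on both strands in windows from 250 bases before to 50 bases after each start. The E-box was found in 1 member window, that of *Chrna7*, at chr7:63212576-63212603 on the minus strand, with its first base 66 bases before the start (capitals).

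*Chrna7* E-box: gggcgcgctgtCACGTGtgggggtgcgc

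It occurs in 7.15% of all windows. CACGTT (4.68% of all windows) and TTATGTAA (0.938%) were in no member window.

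To determine whether loss of BMAL1 altered receptor transcripts on cholinergic ribosomes, genotypes were compared over both times, as the mean of the 2 effects in a fit of all 24 libraries, and at each time alone. *Chrnb4* and *Chrnb2*, the β subunits, were higher in *ChAT-BKO* neurons over both times, *Chrnb4* by nearly 1 on the log2 scale and *Chrnb2* by 0.14. The other 8 members were not called. In bulk libraries, fewer cells that carry a transcript and less of it per cell cannot be told apart. Over both times 2 of 10 members were called, both upward, beside 0.671% of all genes, and the median log2 fold change of the 10 was 0.04.

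*Chrnb4* encodes β4, the partner of α3 in ganglionic-type receptors. Its lowest, median, and highest CPM at ZT8 were 0.586, 1.06, and 1.29 in controls and 1.22, 1.66, and 2.21 in *ChAT-BKO* libraries. At ZT20 they were 0.407, 0.681, and 1.41 in controls and 0.924, 1.76, and 2.20 in *ChAT-BKO* libraries. At each time 5 of 6 *ChAT-BKO* libraries lay above every control, and the remaining library lay within the control range. Means were 0.883 ± 0.342 CPM (SD, n = 12) in controls and 1.70 ± 0.389 CPM (SD, n = 12) in *ChAT-BKO* libraries. The log2 fold change over both times was 0.98 (SE 0.18, 95% confidence interval 0.61 to 1.35, adjusted p = 0.00296). These are small counts, 4 to 39 reads a library.

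The *Chrnb4* call over both times held in all 6 alternative settings (log2 fold change 0.94 to 0.99, adjusted p from 0.000181 to 0.0157) and without any 1 of the 24 libraries (0.91 to 1.09, adjusted p from 0.000441 to 0.0119). Taken alone, ZT8 gave 0.75 (SE 0.23, unadjusted p = 0.00463, adjusted p = 0.630) and ZT20 gave 1.20 (SE 0.29, unadjusted p = 0.00047, adjusted p = 0.123). The 2 effects differed by 0.45 (SE 0.36, 95% confidence interval −0.29 to 1.20), and this difference was not called. *Chrnb4* is on the gene list that the study drew from these same libraries at ZT20, so its direction there is not independent evidence.

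Skeletal muscle transcripts also moved with genotype at ZT20. The summed level of 16 muscle markers had a median of 76.2 CPM in the control group (64.9 to 101) and 139.8 CPM in the *ChAT-BKO* group (79.5 to 187). Of the 16 markers, 6 were called upward by edgeR, 4 by DESeq2, and 0 by limma-voom. In edgeR all 16 were above 0, 13 at an unadjusted p under 0.05, with a median log2 fold change of 2.11. The sum was mostly *Pvalb*, at a median of 59.1 CPM over the IP libraries (scaled together with the input), whose log2 fold change at ZT20 was 0.01. The level of the sum therefore reflects the other markers only in part, whereas *Pvalb* contributed little to its rise at ZT20. The covariate made from the sum below differed between genotypes at ZT20, so the 2 cannot be fully told apart there. At ZT8 the sum was 61.8 to 211 and 60.5 to 278 CPM (medians 77.6 and 70.1), and none was called; no muscle marker was at 0 in any group. With the log2 of this sum as a covariate, the *Chrnb4* difference was 0.97 over both times (SE 0.19, adjusted p = 0.00739), 0.74 at ZT8 (SE 0.24), and 0.77 at ZT20 (SE 0.50, unadjusted p = 0.137). The acetylcholine receptor subunits typical of muscle had few or no reads, *Chrnb1* apart. *Chrnd* and *Chrng* had 0 reads in 24 IP libraries, *Chrne* had 3 reads in 1 library, and *Chrna1* had 49 reads in all. *Chrnb1*, the muscle β subunit, had a median of 0.504 CPM, beside 0.400 CPM for *Chrna5*, and the source of its reads was not tested. Of 10 sensory ganglion markers, from cells that also use α3 and β4, edgeR called 0 at either time, with 7 above 0 at ZT8 and 1 at ZT20 and none absent in any group. Their sum was lower in *ChAT-BKO* libraries (medians of 308 against 415 CPM at ZT8 and 289 against 403 CPM at ZT20), but it was mostly *Calca*, which was enriched in the IP (log2 ratio 2.57).

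*Chrnb2* encodes β2, the main partner of α4. Its lowest, median, and highest CPM at ZT8 were 82.3, 87.8, and 94.3 in controls and 88.8, 95.9, and 101 in *ChAT-BKO* libraries, and at ZT20 78.7, 80.4, and 87.3 against 82.7, 90.5, and 97.3. The ranges overlapped, with 4 of 6 *ChAT-BKO* libraries above every control at each time. Means were 84.4 ± 4.89 and 93.0 ± 5.32 CPM (SD, n = 12 each), and the log2 fold change over both times was 0.14 (SE 0.03, 95% confidence interval 0.07 to 0.21, adjusted p = 0.04997). The adjusted value lay just under the threshold. It was called in 3 of 6 alternative settings (adjusted p from 0.00418 to 0.114) and in 6 of 24 fits that left out 1 library (0.0218 to 0.106), always in the same direction. With the muscle covariate the *Chrnb2* difference over both times was 0.14 with an adjusted p of 0.0776. At ZT20 alone it was 0.15 (SE 0.05) without this covariate and 0.05 (SE 0.08) with it, and at ZT8 it was 0.13 either way.

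**Figure D1:**
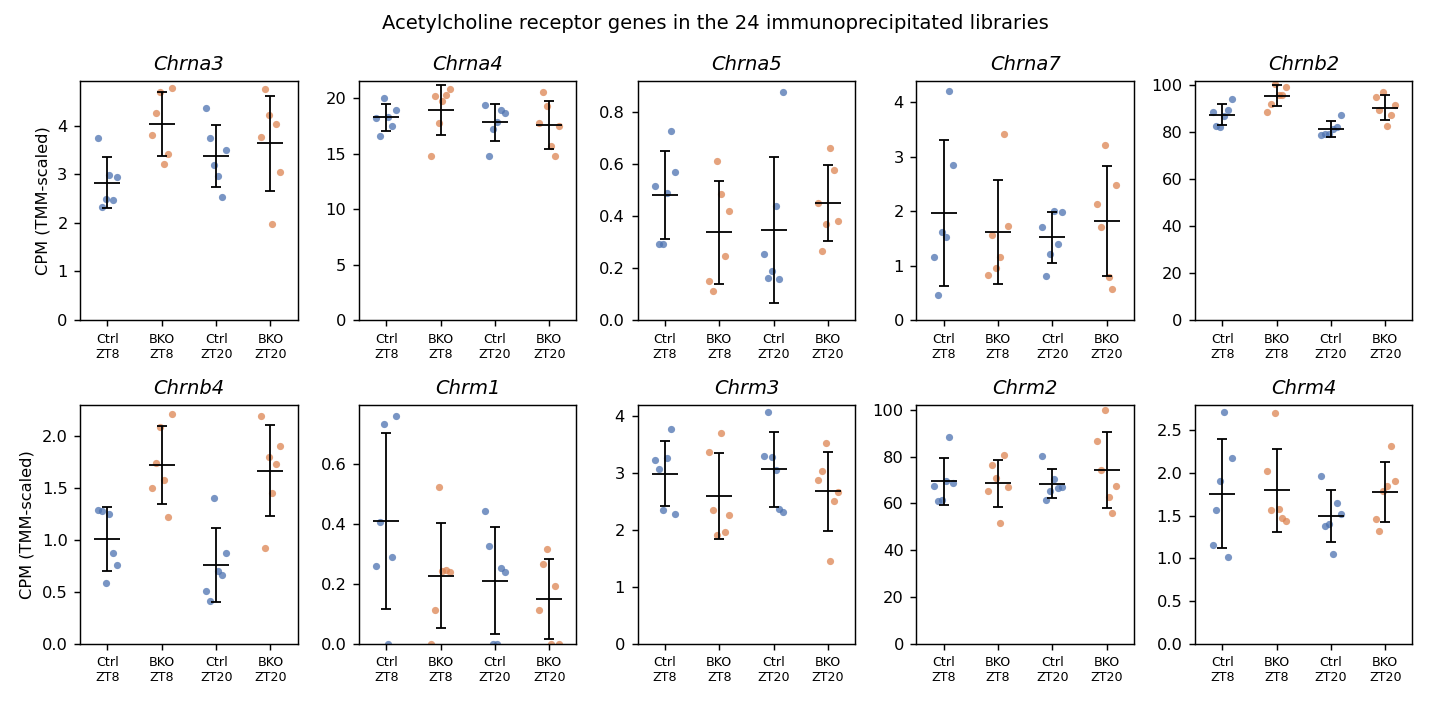
Level of each of the 10 receptor genes in each of the 24 IP libraries (y axis, TMM-scaled CPM, one panel per gene), by genotype and time. Each condition has 6 libraries, with the bar at the mean and whiskers showing the SD. *Chrnb4* lies between 0.407 and 1.41 CPM in controls and between 0.924 and 2.21 CPM in *ChAT-BKO* libraries, while the groups of most other members overlap broadly.

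*Chrna3* encodes α3. At ZT8 its lowest, median, and highest CPM were 2.33, 2.71, and 3.74 in controls and 3.22, 4.04, and 4.78 in *ChAT-BKO* libraries, with 4 of 6 *ChAT-BKO* libraries above every control. At ZT20 they were 2.53, 3.35, and 4.37 against 1.98, 3.91, and 4.75, with broad overlap. The log2 fold change was 0.54 at ZT8 (SE 0.16, unadjusted p = 0.00378, adjusted p = 0.579), 0.13 at ZT20 (SE 0.19), and 0.34 over both times (SE 0.12, 95% confidence interval 0.08 to 0.59, adjusted p = 0.401), and it was called in none of them. The change in effect from ZT8 to ZT20 was −0.40 (SE 0.25, unadjusted p = 0.119). Summed with *Chrna5*, whose reads it partly shares, *Chrna3* gave 0.29 over both times (SE 0.12, adjusted p = 0.481).

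*Chrna4*, the main partner of *Chrnb2*, was measured with little spread. Its control and *ChAT-BKO* medians were 18.3 and 20.0 CPM at ZT8 and 18.3 and 17.6 CPM at ZT20, and the 24 libraries ranged from 14.8 to 20.8 CPM. Over both times the log2 fold change was 0.02, with a 95% confidence interval of −0.11 to 0.15. *Chrna5* was near the detection limit, at 1 to 11 reads a library (0.112 to 0.877 CPM), and its interval of −0.70 to 0.67 leaves changes of that size undetectable at this depth. *Chrna7*, the α7 subunit, ranged from 0.465 to 4.21 CPM within the controls at ZT8 alone, and its log2 fold change over both times was 0.01 (−0.55 to 0.58).

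Among the muscarinic receptors no member was called. *Chrm2* (M2) had a lowest, median, and highest CPM of 61.0, 68.2, and 88.3 (controls) against 51.4, 68.9, and 80.7 (*ChAT-BKO*) at ZT8, and of 61.6, 66.9, and 80.2 against 56.1, 70.8, and 99.8 at ZT20. The genotypes overlapped at both times, and the log2 fold change over both was 0.06 (95% confidence interval −0.11 to 0.22). *Chrm4* (M4) had medians of 1.74 and 1.57 CPM at ZT8 and 1.46 and 1.82 CPM at ZT20 (log2 fold change over both times 0.08, −0.24 to 0.40). *Chrm3* (M3) had medians of 3.15 and 2.31 CPM at ZT8 and 3.17 and 2.77 CPM at ZT20 (−0.15, −0.44 to 0.14). *Chrm1* (M1) had 0 reads in 6 of 24 libraries and at most 8 in any, so its −0.59 (−1.65 to 0.47) is uninformative in either direction.

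**Figure D2:**
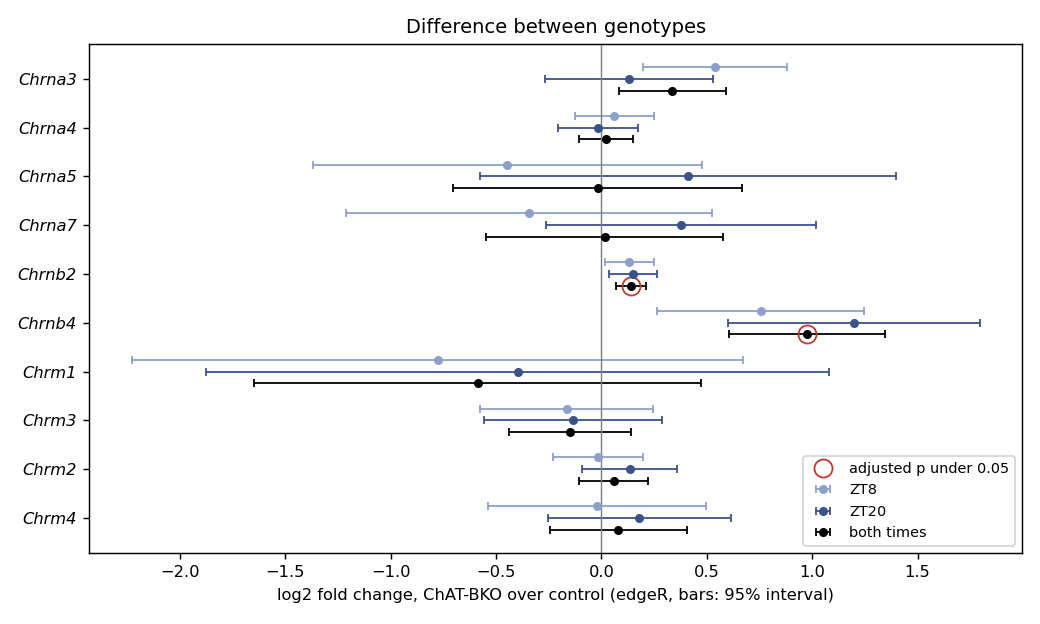
Log2 fold change (*ChAT-BKO* over control) of each receptor gene with its 95% confidence interval, at ZT8, at ZT20, and over both times. The interval of *Chrnb4* over both times runs from 0.61 to 1.35 and that of *Chrnb2* from 0.07 to 0.21, and the widest intervals belong to *Chrm1*, *Chrna5*, and *Chrna7*.

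At single times edgeR called 0 of 10 members at ZT8, where 0.184% of all genes were called, and 0 of 10 at ZT20 (0.23% of all genes). At an unadjusted p under 0.05 there were 3 members at ZT8, beside 1048 of 21746 genes, and 2 at ZT20, beside 1365 genes. DESeq2 called 0 at ZT8 and 1 at ZT20, *Chrnb4* (adjusted p = 0.0403), where it called 0.418% of all genes and gave no adjusted p for *Chrm1*. With limma-voom 0 were called at both. Without control ZT20 replicate 3, edgeR called *Chrnb4* at ZT20 as well (adjusted p = 0.0472). No member's 2 genotypes were fully separated at either time, as were those of 0.57% of all genes at ZT8 and 0.506% at ZT20. The difference between the 2 genotype effects called 0 of 10 members and 0.0% of all genes. At an unadjusted p under 0.05 there were 0 members, beside 847 of 21746 genes, and DESeq2 and limma-voom called 0 members.

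Time of day was compared within each genotype and over both, using the same libraries as the genotype comparisons. None of the 10 members was called within controls (0.115% of all genes) or within *ChAT-BKO* mice (0.29%) by edgeR, DESeq2, or limma-voom. DESeq2 gave no adjusted p, and so could make no call, for *Chrm1*, *Chrna5*, and *Chrnb4* within either genotype. The same held for *Chrm4* and *Chrna7* within *ChAT-BKO* mice, and for *Chrm1* and *Chrna5* over both genotypes. Within a genotype no member reached an unadjusted p under 0.05 in edgeR, beside 1793 of 21746 genes in controls and 2045 in *ChAT-BKO* mice. With DESeq2 *Chrnb2* did in controls (log2 fold change −0.11, unadjusted p = 0.0370, adjusted p = 0.450), beside 1521 genes. Groups of the 2 times were fully separated for no member, beside 0.943% of all genes in controls and 1.19% in *ChAT-BKO* mice. Over both genotypes 0 members were called by any of the 3 tools (2.63% of all genes with edgeR). In edgeR 3099 of 21746 genes reached an unadjusted p under 0.05, among them 1 member. This was *Chrnb2*, lower at ZT20 by 0.09 on the log2 scale (−0.09, SE 0.03, unadjusted p = 0.0171, adjusted p = 0.210). *Chrnb4* was at −0.49 in controls (95% confidence interval −1.14 to 0.15) and −0.05 in *ChAT-BKO* mice (−0.51 to 0.41). The intervals of *Chrna4* and *Chrm2* over both genotypes, −0.19 to 0.07 and −0.10 to 0.23, were narrow.

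Receptor genes were then ranked against each other per kilobase of transcript (GENCODE mean transcript length). The order followed the mean of log2 CPM per kb over the 12 control libraries, and the values given are medians. *Chrm2* was highest at 21.2 CPM per kb, followed by *Chrnb2* at 15.5 and *Chrna4* at 11.1. *Chrm3* (1.37), *Chrm4* (1.07), *Chrna3* (0.879), and *Chrna7* (0.640) formed a middle tier. *Chrnb4* (0.219), *Chrna5* (0.225), and *Chrm1* (0.0716) were lowest, the first 2 level with each other (mean log2 difference 0.00089). Of 9 neighbouring pairs, 5 differed beyond the spread between libraries in an exact two-sided paired permutation test, with Benjamini-Hochberg adjustment over the 9. *Chrm2* exceeded *Chrnb2*, *Chrnb2* exceeded *Chrna4*, and *Chrna4* exceeded *Chrm3* in 12 of 12 libraries (exact adjusted p = 0.00146 for each, the last by 3.07 on the log2 scale). *Chrna7* exceeded *Chrnb4* and *Chrna5* exceeded *Chrm1* in 11 of 12 libraries (exact adjusted p = 0.00352 and 0.00220). The neighbours from *Chrm3* down to *Chrna7* did not differ beyond their spread (exact adjusted p = 0.186, 0.127, and 0.0864), nor did *Chrnb4* and *Chrna5* (0.997).

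In *ChAT-BKO* libraries the 4 lowest genes had the same order of mean log2 level, in which *Chrnb4* and *Chrna5* were level in controls, and *Chrm4* ranked above *Chrm3*. There *Chrnb4* exceeded *Chrna5* (exact adjusted p = 0.00220), and *Chrna7* did not exceed *Chrnb4* beyond the spread (0.147). The orders of the genotypes were not tested against each other. With the longest transcript in place of the mean, *Chrnb2* ranked above *Chrm2*, and *Chrna4* was at 4.00 CPM per kb, 1.85 on the log2 scale above the next gene, *Chrm4*, so these levels depend on the transcript length assumed.

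**Figure D3:**
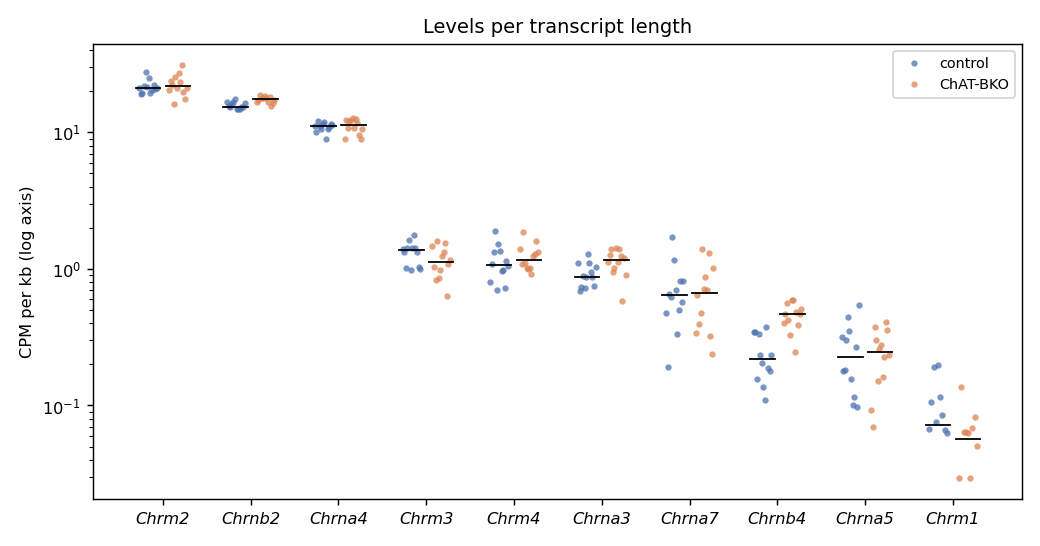
Level of each receptor gene per kilobase of mean transcript length (log axis, CPM per kb), one point per IP library, with genes in the order of their control level. *Chrm2*, *Chrnb2*, and *Chrna4* lie highest, with *Chrna4*, the lowest of them, 3.07 log2 units above *Chrm3* in controls, and the 6 libraries with 0 reads of *Chrm1* cannot be drawn on the log axis.

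By share of all 6 nicotinic members per kilobase, *Chrnb2* made up a median of 54.9% over the 24 IP libraries and *Chrna4* 37.1%. *Chrna3* followed with 3.44%, *Chrna7* with 2.09%, *Chrnb4* with 1.22%, and *Chrna5* with 0.763%. By group the median share of *Chrnb4* was 0.951% and 0.644% in controls at ZT8 and ZT20 and 1.46% and 1.57% in *ChAT-BKO* mice, and in controls at ZT8 *Chrna5* was above it at 1.04%. Among the 4 muscarinic members *Chrm2* made up 90.0%, *Chrm3* 5.01%, *Chrm4* 4.70%, and *Chrm1* 0.260%. On longest transcripts *Chrnb2* was at 70.1%, *Chrna4* at 20.3%, and *Chrm2* at 87.0%.

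Enrichment on cholinergic ribosomes was measured as the log2 ratio of each IP library to the pooled input. There is 1 input library, so the ratios carry no input error and were not tested. Markers of the labelled cell type were enriched, with 6 of 6 cholinergic markers above 1 and a median of 3.33, whereas the medians of astrocyte, oligodendrocyte, microglia, sensory ganglion, skeletal muscle, vascular, and meningeal fibroblast markers were −3.68, −3.27, −3.75, −3.30, −2.80, −2.75, and −2.34. No receptor gene was enriched to a comparable degree. Of the 10 members, 0 had a median ratio above 1 (14.3% of all genes) and 3 were below −1 (24.9% of all genes), and their median was −0.24 beside −0.07 for all genes.

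The members divided into 3 groups by this ratio. *Chrnb2* (0.74) and *Chrm2* (0.67) were above the input in 24 of 24 IP libraries, *Chrna3* (0.62) in 23, and *Chrnb4* (0.45, on an input count of 9) in 16. For *Chrnb4* these were 12 of 12 *ChAT-BKO* libraries (median 0.82) but 4 of 12 controls (median −0.13), so its place above the input rested on the knockout libraries. *Chrm4* and *Chrna5* (both −0.24) and *Chrm1* (−0.71) rested on input counts of 19, 5, and 5. *Chrna4* (−1.24), *Chrm3* (−1.42), and *Chrna7* (−2.05) were below the input in every IP library, on input counts of 435, 81, and 71. With total-count CPM in place of TMM the ratios were lower, and the medians of *Chrnb2*, *Chrm2*, *Chrna3*, and *Chrnb4* over the 24 libraries were 0.30, 0.24, 0.22, and 0.04. *Chrnb2* and *Chrna4*, which assemble together in the commonest neuronal nicotinic receptor, fell on opposite sides of the input. The ratio of *Chrna4* lay close to the medians of inhibitory (−1.31) and excitatory (−1.60) interneuron markers, and how much of its IP signal came from RNA of other cells was not tested.

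**Figure D4:**
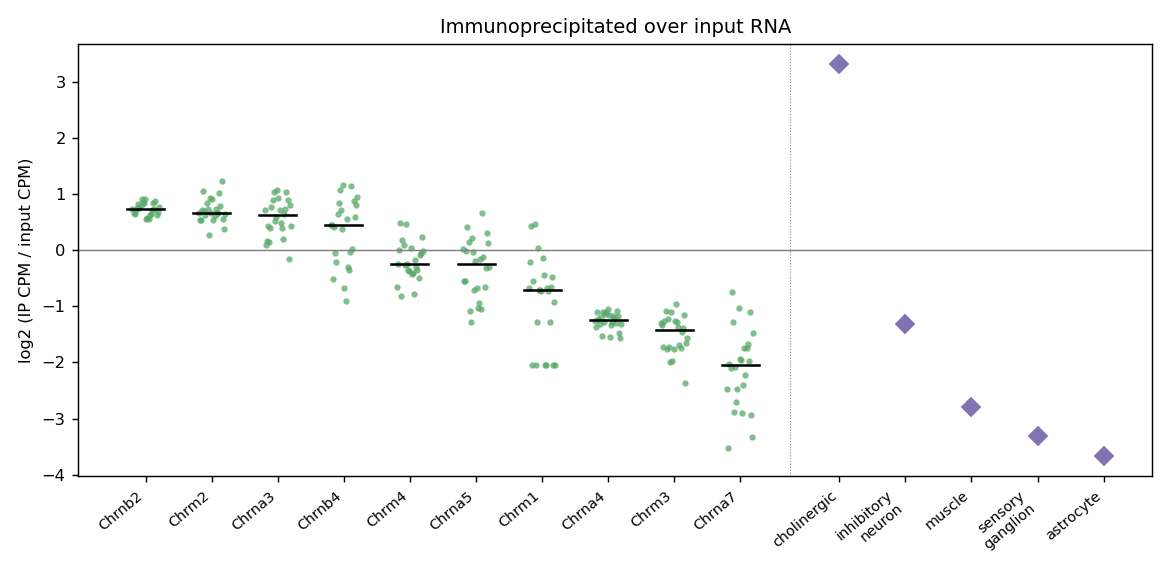
Log2 ratio of each IP library over the pooled input for the 10 receptor genes, one point per library (n = 24). *Chrnb2* and *Chrm2* lie above 0 in 24 libraries, and *Chrna4*, *Chrm3*, and *Chrna7* lie below 0 in all of them.

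The remaining receptor subunit genes and the proteins that act with the receptors showed few changes. Of 11 other subunit genes 6 passed the filter (*Chrna1*, *Chrna2*, *Chrna6*, *Chrna10*, *Chrnb1*, and *Chrnb3*), 0 were called in any comparison by edgeR, and *Chrm5* had 5 reads in all. Over both times their log2 fold changes ran from −0.39 (*Chrna1*) to 0.95 (*Chrna6*, SE 0.41, unadjusted p = 0.0276, adjusted p = 0.577), the latter on 84 reads over 24 libraries. Of 8 genes that assemble or modulate nicotinic receptors, 0 were called by genotype over both times by edgeR, DESeq2, or limma-voom, 0 had an unadjusted p under 0.05 in edgeR, and the median was −0.03. By time over both genotypes edgeR called 1 of these 8, beside 2.63% of all genes. *Lypd6b*, a membrane-anchored modulator of nicotinic receptors, fell at ZT20 by 0.20 on the log2 scale (SE 0.05, adjusted p = 0.0159). Its median CPM was 51.3 and 52.6 at ZT8 (control and *ChAT-BKO*) and 44.3 and 44.1 at ZT20.

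Of 10 genes of Gi/o signalling, 1 was called by genotype over both times, beside 0.671% of all genes. *Rgs4*, which speeds the turning off of Gi/o and Gq proteins, had a median of 239.8 CPM in controls at ZT8 and 296 CPM in *ChAT-BKO* libraries, and medians of 272 and 324 CPM at ZT20, with overlap between genotypes at each time. It rose by 0.26 on the log2 scale (SE 0.05, adjusted p = 0.00395), and the median of the list was 0.01. *Arrb2*, which encodes β-arrestin 2, was the 1 of these 10 genes that edgeR called by time over both genotypes (2.63% of all genes). It fell at ZT20 by 0.20 (SE 0.04, adjusted p = 0.00882). Of 8 genes of Gq signalling, from *Kcnq5* (−0.07) to *Plcb1* (0.06), edgeR called 0 in any comparison, and over both times 0 had an unadjusted p under 0.05 by genotype and DESeq2 and limma-voom called 0.

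Finally, libraries of one condition differed among themselves, and the receptor genes followed this spread to different degrees. The coefficient of variation within conditions was 4.99% for *Chrnb2*, 10.3% for *Chrna4*, 16.0% for *Chrm2*, 20.8% for *Chrna3*, 23.9% for *Chrm3*, 27.3% for *Chrm4*, and 28.8% for *Chrnb4*, and it was 50.7% for *Chrna5*, 57.5% for *Chrna7*, and 82.2% for *Chrm1*. *Chrna7* varied far more than *Chrnb4* at a similar CPM. Each library was given a length slope, obtained by regressing log2 CPM on the log2 of transcript length over the genes with a length, which ran from 0.483 to 0.688. As deviations from the condition mean over 24 libraries, *Chrm2* and *Chrna7* followed this slope (Pearson r = 0.86 and 0.84), *Chrnb2* and *Chrna4* less so (0.62 and 0.50), and *Chrnb4* hardly at all (0.03).

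Across 13721 genes the median r with the slope was 0.04 and the 5th and 95th percentiles were −0.91 and 0.85, so *Chrm2* was among the genes that followed it most closely. The genes most like each member shared the same libraries and depths, and are given as a description. They were *Dnm3* and *Slc9a7* for *Chrm2* (r = 0.94 each), *Ttll5* and *Sh3bgrl2* for *Chrna7* (0.94 each), *Nckipsd* and *Kcnab2* for *Chrnb2* (0.83 and 0.80), and *Ankrd34b* and *Ptpn11* for *Chrna4* (0.81 and 0.77). For *Chrnb4* the closest were *Diaph2* and *Eid2b* (0.69 and 0.66). *Chrna7* and *Chrm2* deviated together (r = 0.72), whereas *Chrna3* and *Chrnb4*, neighbours on the chromosome, did not (0.03).

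**Figure D5:**
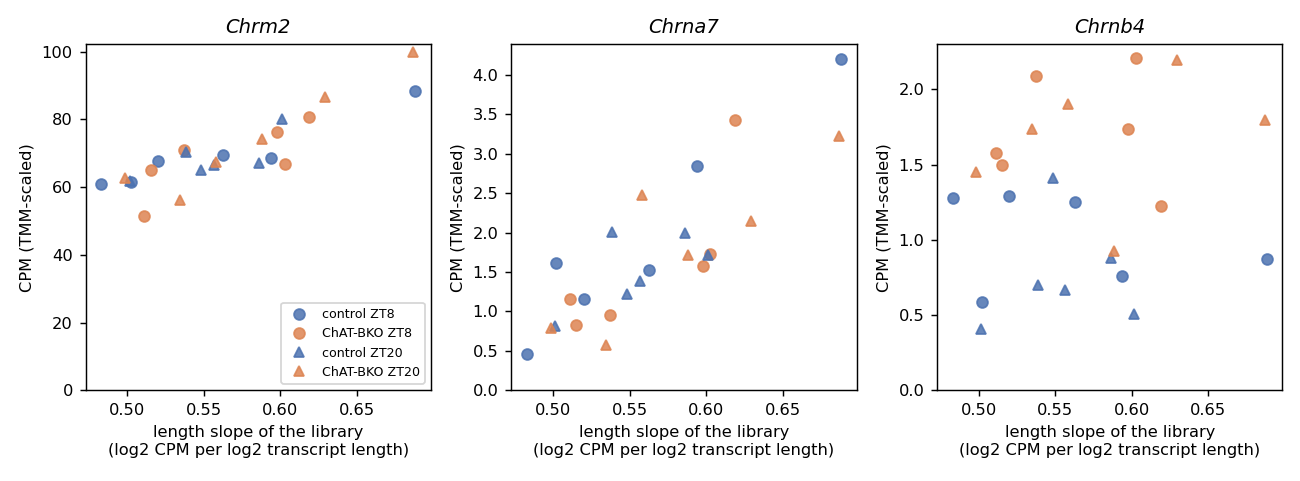
CPM of *Chrm2*, *Chrna7*, and *Chrnb4* in each of the 24 IP libraries (y axis) against the library's length slope (x axis, log2 CPM per log2 transcript length), by genotype and time. *Chrm2* and *Chrna7* are higher in libraries with a higher slope (r = 0.86 and 0.84 after condition means are removed), and *Chrnb4* shows no such relation (r = 0.03).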

How the data were processed

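RNA was immunoprecipitated from 24 spinal cords (4 conditions, 6 mice each) and sequenced beside 1 pooled input. Per the labels and methods, the authors aligned reads with STAR 2.7.5 to mm10 and deposited expected counts per gene from RSEM, of which 6.12% were not whole; they were rounded here. The methods name Ensembl, although 96.7% of the symbols matched RefSeq and 74.8% GENCODE vM21. The strand setting of RSEM is not given in the sources used here, so reads of *Chrnb2* and *Adar* may be mixed. For each of these 2 genes, 0 of 25 expected counts were not whole, and mixing was not tested. Genes with at least 10 counts over the IP libraries (21746) were TMM-scaled and tested in edgeR 4.0.16 (R 4.3.3) with Benjamini-Hochberg adjustment over all of them; per-time and per-genotype tests used their own 12 libraries, and the others all 24. Standard errors derive from the F statistic, so a p-value can exceed what they imply for low counts. DESeq2 1.42.0, limma-voom (limma 3.58.1), other scaling, no filter, a replicate block, a length slope covariate, and leaving out each library were alternatives, and the muscle covariate and summed *Chrna3* and *Chrna5* were added after values were seen. IP over input was the difference of log2 CPM with a prior count of 2; levels per kb had a pseudocount of 0.01. The fits were tested on simulated data. The 10 members were named in every comparison; of the other lists, called genes or the extremes. Members and lists were chosen with earlier results of these data known. Per the methods, all samples were handled on the same day. One further gene list is not reported here.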

Additional observations from a re-analysis of the deposited data

Results flagged for a closer look

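Of 40 groups of 6 libraries (10 genes in 4 conditions), 2 held a library that stood apart from the other 5 by Dixon's ratio of gap to range, and chance gives about 1 in 20. *Chrna7* was at 3.43 CPM in *ChAT-BKO* ZT8 replicate 5, where the next library was at 1.73 CPM. That value rests on 14 reads in the IP library with the lowest total count. *Chrm2* was at 88.3 CPM in control ZT8 replicate 5, where the next was at 69.5 CPM. These libraries had the highest length slopes of their conditions, 0.619 and 0.688. The part of the slope in these values was not tested.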

How the results depend on the processing

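Of 1660 log2 fold changes of the 10 members under alternatives, 1549 kept their direction and side of the threshold, 21 lost a call, 4 gained one, and 86 values that were not called changed sign; 0 called values reversed. Members called at ZT20 went from 0 to 1 (*Chrnb4*) with DESeq2 and with all 24 libraries in 1 fit, and were 0 to 1 with 1 library left out (1 without control ZT20 replicate 3, adjusted p = 0.0472). Members called over both times went from 2 to 1, *Chrnb2* being lost, with DESeq2 size factors, no filter, the replicate block, and the muscle covariate, and were 1 to 2 with 1 library left out. Over both genotypes 0 became 1 with the length slope covariate (*Chrnb2*, adjusted p = 0.0210).

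All genes called moved from 40 at ZT8 to 71 with DESeq2, 159 with the length slope, and 69 with the replicate block (19 to 42 with 1 library left out, lowest without *ChAT-BKO* replicate 3), and from 50 at ZT20 to 91 with DESeq2 and 162 with the length slope (29 to 69, lowest without control replicate 3 or 4). Over both times 146 became 225 and 414, and for the difference 0 became 1 with the length slope. For time, 25 in controls became 127 with DESeq2, 383 with the length slope, and 85 with the block (11 to 29), 63 in *ChAT-BKO* mice became 224, 508, and, with all 24 libraries, 140 (33 to 72, lowest without *ChAT-BKO* ZT8 replicate 1), and 572 over both genotypes became 872 and 1645. The cause was not tested. The members' median IP over input was −0.61 with total-count CPM. The ZT20 and both-times values carry the limit that *Chrnb4*, *Chrna5*, and *Chrm1* rest on few reads.

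Replicate numbers did not pair the samples: of 36 same-numbered pairs of libraries, 2 had correlated deviations over 0.1 (range −0.12 to 0.16) and 5 were each other's best match, so the replicate block is given only here.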
